A study of Nothobranchius furzeri with 42 samples.

Results

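The comparison described here is that of alendronate with placebo in the muscle of the caudal fin of the African turquoise killifish, Nothobranchius furzeri. It covers the 9 muscle libraries of the 42 in the series, 5 with alendronate and 4 with placebo, over all 25475 genes of the deposited count table. Libraries were chosen by their tissue and treatment labels alone, with no measured value. Females of the short-lived GRZ strain were kept at 28 °C. For 3 weeks from an age of 16 weeks they received 10 µM alendronate, or as placebo an equal amount of distilled water, in water of which 10% was changed daily. All fish were 19 weeks old at sampling. Fish are named by arm and by the number in the library title, read as 1 fish each. The sources used here do not say how many tanks held them, so tank and treatment cannot be told apart. The serial numbers of the muscle libraries with alendronate all precede those with placebo, so any effect of that order cannot be told apart from treatment either. In bulk tissue, fewer cells of a type and less RNA per cell cannot be told apart.

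Alendronate is a nitrogen-containing bisphosphonate, a drug that binds to bone mineral. It blocks farnesyl diphosphate synthase, an enzyme of the mevalonate pathway that supplies the lipid groups by which small GTPases attach to membranes. Its best-known target cell is the osteoclast, which takes the drug up while it resorbs bone. The caudal fin muscles are small skeletal muscles that attach to the bases of the bony fin rays, and skeletal muscle devotes much of its RNA to a limited set of contractile and energy genes.

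The files identify genes by Ensembl IDs alone, and 0 of the 25475 IDs matched the gene table at hand. Genes are therefore described by level and pattern, without names or functions. Neither the genes of the mevalonate pathway nor the markers of muscle, bone or blood could be looked up, and the tissue label could not be checked against defining markers. Each of the 9 muscle libraries correlated best with another muscle library among all 42. Total counts ran from 25299618 to 29820041 with alendronate and from 22171430 to 35717250 with placebo, and between 18572 and 20695 genes had at least 1 count in a library.

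Libraries of placebo fish 1 and placebo fish 4 stood apart from the other 7, and in opposite directions on the first principal component. For each library, genes at a mean of 1 CPM (reads per gene scaled to a common library total, which TMM factors adjust) or more were set against the median of the other 8 libraries. Of 13743 such genes, 1405 lay at least 2-fold away in placebo fish 1 and 1452 in placebo fish 4, that is 10.2% and 10.6%. Alendronate fish 4 had 763 such genes and alendronate fish 1 had 724. The remaining 5 libraries had between 258 and 519. The lowest correlation between any pair of muscle libraries, a Pearson r of 0.913 across genes, was that between placebo fish 1 and placebo fish 4. The first principal component carried 25.1% of the variance and placed these fish at its 2 ends, while all 5 alendronate libraries lay between them. The second carried 20.5% and placed placebo fish 1 and 4 on the same side, at -60 and -27.1. On it alendronate fish 2 to 5, at 18.3 to 34.2, lay above every placebo fish, the highest of which was at 7.54. Alendronate fish 1 was at -13, among the placebo fish. Separation of the arms on the components was not tested.

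**Figure D1:**
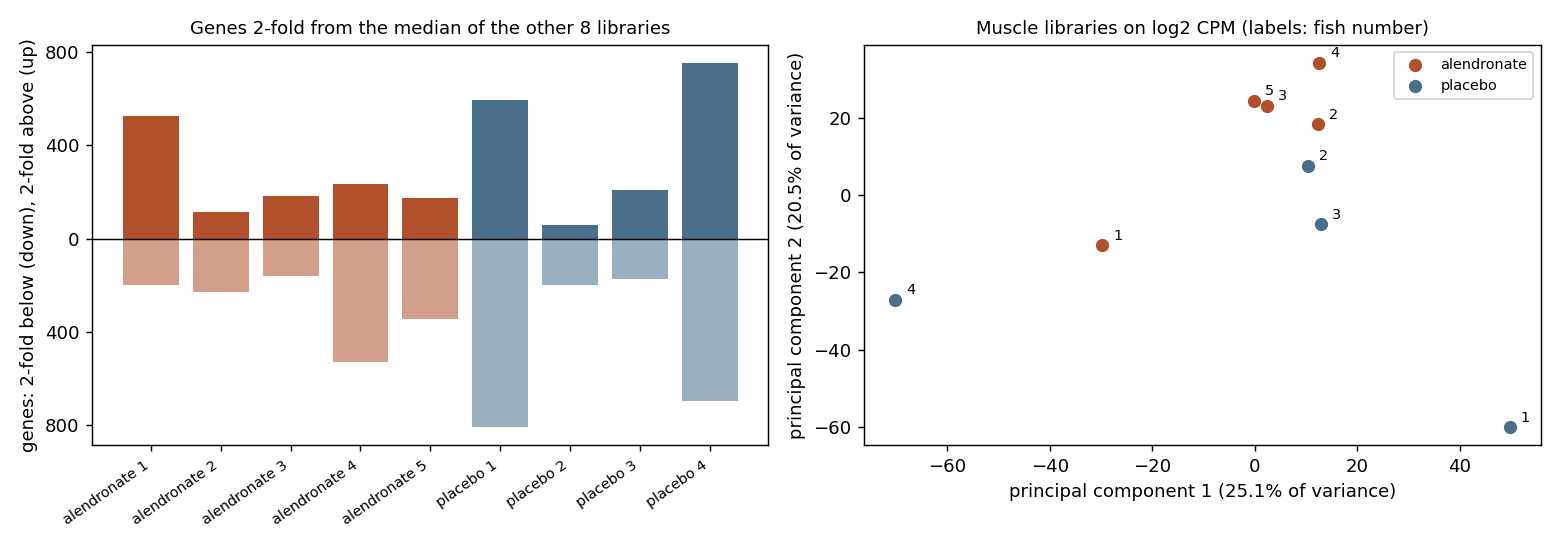
Left: number of genes at 1 CPM or more that lay at least 2-fold above (upward bars) or below (downward, paler bars) the median of the other 8 muscle libraries, for each fish. Right: position of each library on the first and second principal components of log2 CPM. Placebo fish 1 and 4 have the most deviating genes, 1405 and 1452, and lie at opposite ends of the first component.

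Levels therefore varied more between placebo fish than between alendronate fish. The median standard deviation of log2 CPM within an arm was 0.271 with alendronate and 0.344 with placebo, over the same 13743 genes. For 8625 of these genes, or 62.8%, the spread was larger with placebo. Without placebo fish 4 the placebo median was 0.279, and without placebo fish 1 it was 0.296. On the alendronate side the median was 0.245 without fish 1 and equally without fish 4. This difference in spread was not tested.

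Against this spread, alendronate fish had 1 gene at a lower level and 0 at a higher level among the 15610 genes with enough counts to be tested. This is 0.00641% of the genes tested, at a Benjamini-Hochberg adjusted p under 0.05 from the quasi-likelihood test of edgeR. The gene is ENSNFUG00015020294. Its level was 8.20, 6.25, 9.78, 16.7 and 14.7 CPM in alendronate fish 1 to 5, and 70.7, 96.6, 56.6 and 44.9 CPM in placebo fish 1 to 4. The arms did not overlap: the lowest placebo fish stood 2.69 times above the highest alendronate fish. These levels rested on 164 to 445 reads per library with alendronate and on 1325 to 3302 with placebo, so counting error is small beside the differences between fish. The mean was 11.1 ± 4.42 CPM with alendronate and 67.2 ± 22.3 CPM with placebo (SD, n = 5 and 4). The spread relative to the mean was alike, at 39.7% with alendronate and 33.2% with placebo. In the fit its log2 change came to -2.59 (standard error 0.31), that is 6.04-fold lower, and the 95% interval ran from 3.79-fold to 9.61-fold. The adjusted p was 0.0419 in edgeR.

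The next smallest adjusted p in edgeR was 0.664, so no other gene came near the threshold. The call was lost in 8 of the 9 fits that left out 1 library, where the adjusted p in edgeR was 0.0869, 0.0514, 0.223 and 0.0947 on leaving out alendronate fish 1, 2, 3 and 5, and 0.443, 0.129, 0.134 and 0.0805 on leaving out placebo fish 1, 2, 3 and 4. It held without alendronate fish 4, at an adjusted p of 0.0257. The size of the change moved little, with a log2 change from -2.79 to -2.36 over the 9 fits. Without both placebo fish that stood apart the log2 change was -2.78 and the adjusted p in edgeR 0.947, with 2 placebo libraries left.

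ENSNFUG00015020294 was close to absent outside muscle. In heart it had between 0 and 6 reads per library with alendronate and between 2 and 11 with placebo. In kidney it had 0 to 5 and 3 to 6 reads, in spleen 0 to 1 and 0 to 7, and in liver 0 to 1 and 0 to 2, alendronate first in each tissue. With so few reads no tissue but muscle passed the count filter for this gene in a fit of its own. Within muscle it ranked at position 2368 by mean CPM among the genes tested.

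**Figure D2:**
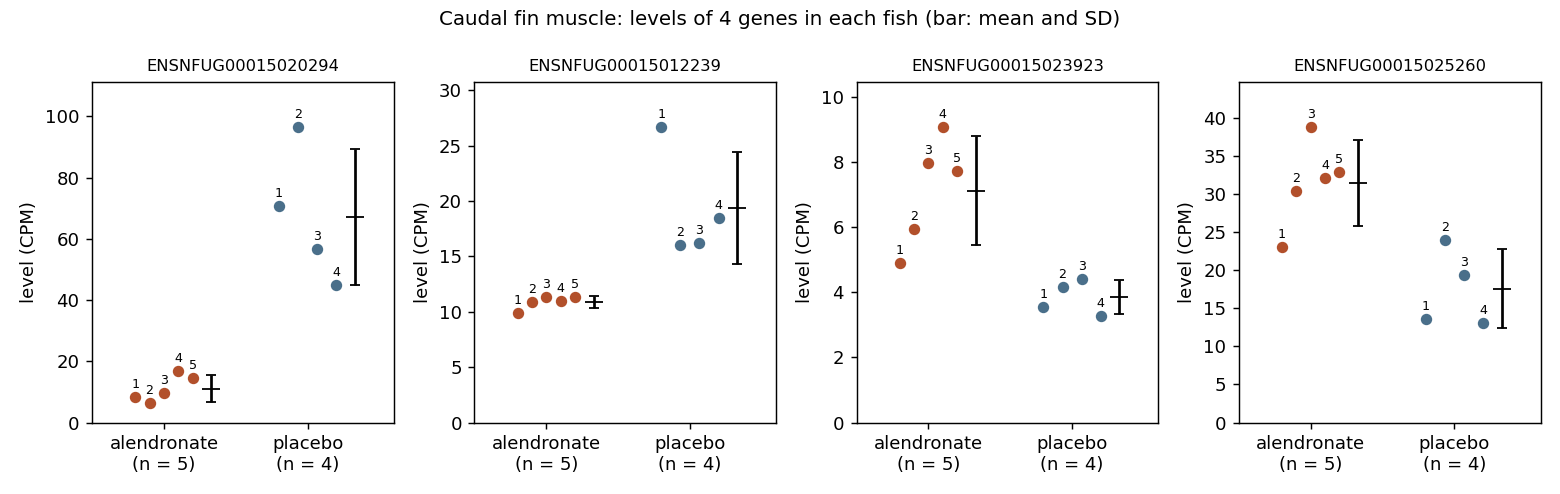
Levels in CPM of 4 genes in each muscle library, with alendronate fish on the left and placebo fish on the right of each panel, numbered by fish, and the mean and SD of each arm as a bar. In all 4 panels the arms do not overlap except in ENSNFUG00015025260, where alendronate fish 1 (23.0 CPM) lies under placebo fish 2 (24.0 CPM), and ENSNFUG00015020294 has the widest gap.

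The gene with the next smallest p among those lower with alendronate was ENSNFUG00015012239, which did not pass. Its level was 9.91, 10.9, 11.3, 11 and 11.3 CPM in alendronate fish 1 to 5, and 26.7, 16.0, 16.2 and 18.5 CPM in placebo fish 1 to 4. The alendronate fish were nearly equal, at 10.9 ± 0.57 CPM (SD, n = 5), and all lay under the lowest placebo fish. Placebo fish averaged 19.3 ± 5.04 CPM (SD, n = 4), with placebo fish 1 the highest. The log2 change was -0.83 ± 0.17 (standard error), or 1.78-fold lower (95% interval 1.38 to 2.29) (unadjusted p = 0.000294, adjusted p = 0.664 in edgeR). This gene was better expressed in the other tissues. On levels scaled over all 42 libraries, it stood at 77.9 ± 6.0 CPM with alendronate and 76.6 ± 7.62 CPM with placebo in heart (SD, n = 5 and 4), and its log2 changes were 0.02 in heart, 0.13 in liver, 0.06 in spleen and -0.21 in kidney, none past the threshold.

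Among genes higher with alendronate the smallest p belonged to ENSNFUG00015023923 and ENSNFUG00015025260, which also did not pass. ENSNFUG00015023923 stood at 4.91, 5.94, 7.96, 9.09 and 7.74 CPM in alendronate fish 1 to 5, and at 3.56, 4.18, 4.41 and 3.28 CPM in placebo fish 1 to 4. All alendronate fish were above all placebo fish, with alendronate fish 1 the closest to them. The log2 change was 0.88 ± 0.21 (standard error), or 1.84-fold with a 95% interval from 1.34 to 2.54 (unadjusted p = 0.00125, adjusted p = 0.664 in edgeR). ENSNFUG00015025260 stood at 23.0, 30.4, 38.8, 32.1 and 32.8 CPM in alendronate fish 1 to 5, and at 13.6, 24.0, 19.4 and 13.1 CPM in placebo fish 1 to 4. Alendronate fish 1 lay just under placebo fish 2, and the other 4 alendronate fish were above every placebo fish. Its log2 change was 0.84 ± 0.21 (standard error) (unadjusted p = 0.00142, adjusted p = 0.664 in edgeR). In heart, the log2 change was 0.51 for ENSNFUG00015023923 and 0.22 for ENSNFUG00015025260, and in liver it was -0.30 and -0.21 in the same order. No change of either gene passed in heart, liver, spleen or kidney, where the smallest adjusted p was 0.914 in edgeR.

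The 1157 genes with an unadjusted p under 0.05, 7.41% of those tested, split into 511 higher (3.27%) and 646 lower (4.14%). That split depended on the method and on single libraries: it was 525 higher and 522 lower with limma-voom, 409 and 419 on leaving out placebo fish 1, and 482 and 495 on leaving out alendronate fish 2. The median size of the change among these genes was 1.53-fold. At an unadjusted p under 0.01 there were 80 higher and 128 lower, and at a p under 0.001 there were 0 higher and 9 lower. The median log2 change over all genes tested was -0.004, on a scaling that holds most genes level between libraries. Single libraries decided much of this tail. It fell to 779 genes (5.01%) without alendronate fish 5 and to 828 (5.20%) without placebo fish 1, and it reached 1460 (9.19%) without placebo fish 2. With no change in any gene, a threshold of 0.05 is itself expected to pass that fraction of genes. Without both placebo fish 1 and placebo fish 4, a choice made after the data were seen, the tail held 576 genes (3.53%). Of these, 246 were higher and 330 lower, and 279 were among the 1157.

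**Figure D3:**
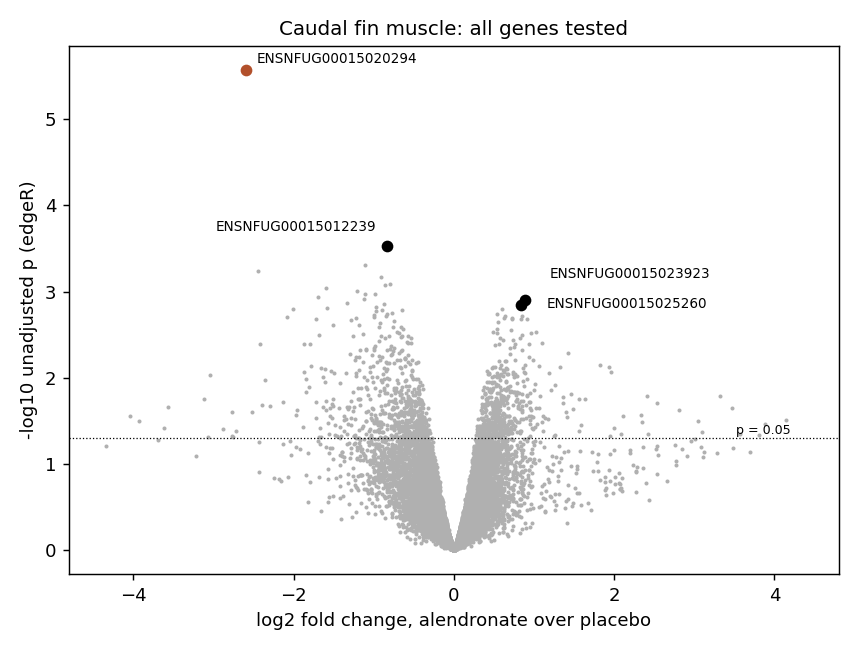
Each point is 1 of the 15610 muscle genes tested, with its log2 fold change (alendronate over placebo) across and the -log10 of its unadjusted edgeR p upwards. ENSNFUG00015020294 stands alone at the top left, and the points with the widest fold changes lie near or below the dotted line that marks the unadjusted edgeR threshold.

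**Figure D4:**
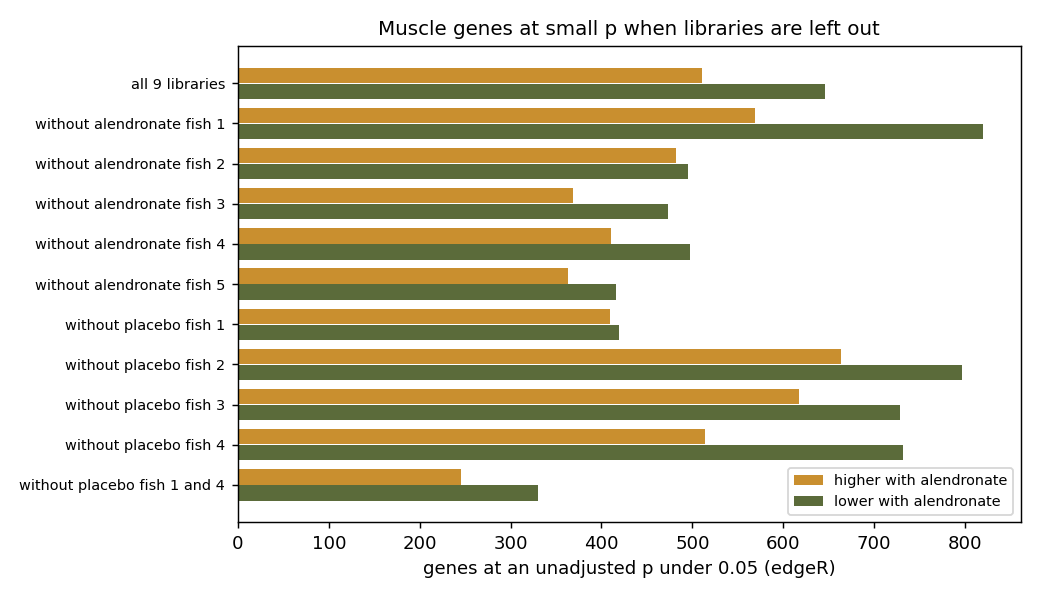
Number of muscle genes at an unadjusted p under 0.05 in edgeR, higher (upper bar of each pair) and lower (lower bar) with alendronate, in the fit of all 9 libraries and when the named libraries were left out. All libraries give 511 higher and 646 lower, and leaving out placebo fish 1 and 4 together gives 246 and 330.

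In 191 genes every alendronate fish was higher than every placebo fish, 1.22% of the genes tested, and in 178 every alendronate fish was lower, 1.14%. Such genes were thus about as frequent in one direction as in the other. With so few fish, some genes separate the arms in this way without any effect, and their number was not estimated. The lower ones had wider changes. Of the 178, 39 differed by at least 2-fold, with a median of 1.55-fold, while of the 191 that were higher 10 did so, with a median of 1.40-fold. This contrast was not tested.

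In most genes with wide fold changes, a large part of the level of the higher arm lay in a single fish. Among the 6578 genes at 10 CPM or more, 19 had a fitted change of 4-fold or more, 10 higher and 9 lower with alendronate. In 18 of the 19, more than 50% of the summed level of the higher arm came from 1 library, the exception being ENSNFUG00015020294. Alendronate fish 3 was the highest library for all 10 of the higher genes. Placebo fish 1 was the highest for 6 of the 9 lower ones. By the tissue groups defined further on, 4 of the 10 higher genes were liver-enriched and 3 of the 9 lower ones muscle-enriched, while these groups made up 0.593% and 5.06% of the 6578 genes. Alendronate fish 3 held 76.2% to 82.3% of the alendronate sum in the 4 liver-enriched genes, and 51.6% to 62.1% in the other 6 higher genes. ENSNFUG00015020294 is 1 of the 3 muscle-enriched genes. A gene can reach both 10 CPM and a wide change through 1 high library. The counts by library and by group are therefore not independent of how the 19 were selected. The widest of these 19 changes, a log2 change of -4.34, belonged to a gene at 0.671 to 8.06 CPM with alendronate and 0.529 to 213 CPM with placebo, where placebo fish 1 held 98.7% of the placebo sum and the arms overlapped (unadjusted p = 0.0615 in edgeR).

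Genes that had no reads at all in one arm were few and nearly all weak. There were 4 with 0 counts in all 5 alendronate libraries and at least 1 count in every placebo library, with 12 to 16 reads in all 4 placebo libraries together. In the opposite direction 6 genes had reads in every alendronate library and none with placebo. All but 1 of them summed to between 7 and 17 reads over the alendronate libraries, and that one had 4 to 151 reads per library, 223 in all. None of these 10 genes passed the count filter, and none was tested.

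Depth and spread set what could be seen at each level of expression. The median standard error of the log2 change was 0.512 for the 1867 genes under 1 CPM, 0.270 for the 7165 from 1 to 10 CPM and 0.176 for the 5640 from 10 to 100 CPM. It was larger again, at 0.195, for the 833 genes in the next class above 100 CPM and, at 0.234, for the 105 most abundant. Intervals at 95% that stayed between 2-fold lower and 2-fold higher were found for 6.96% of the genes under 1 CPM, and for 65.8%, 91.6%, 90.0% and 83.8% of genes in the following classes. Genes at an unadjusted p under 0.05 made up 5.20%, 8.18%, 7.75%, 3.84% and 4.76% of these classes from low to high, beside the 7.41% of all genes. For most genes from 10 CPM upwards a change beyond 2-fold in either direction was thus outside the interval.

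The 10 most abundant muscle genes took between 26.9% and 28.6% of counts with alendronate and between 24.4% and 31.2% with placebo. None of them passed, and their adjusted p in edgeR ran from 0.787 to 0.990. The leading gene averaged 40100 ± 9990 CPM with alendronate and 50300 ± 15900 CPM with placebo (SD, n = 5 and 4), a log2 change of -0.33 with a standard error of 0.28. The next in order averaged 45900 ± 9630 CPM with alendronate and 36000 ± 14800 CPM with placebo, a log2 change of 0.35 with a standard error of 0.30. In both cases the arms differed by less than the spread between placebo fish. All but 1 of the 10 belonged to the muscle-enriched genes described next.

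Gene groups were defined from where genes are expressed in the 42 libraries, these 9 included, since no pathway could be assigned. Tissue-enriched genes had a mean of at least 5 CPM in that tissue and at least 10 times the mean of every other tissue. The 402 muscle-enriched genes took 42.2%, 42.1%, 41.2%, 40.5% and 41.3% of counts in alendronate fish 1 to 5, and 47.8%, 41.4%, 45.6% and 41.9% in placebo fish 1 to 4. The arms overlapped, since placebo fish 2 and 4 lay among the alendronate fish, while placebo fish 1 and 3 were above them. The mean share was 41.5% ± 0.72 with alendronate and 44.2% ± 3.09 with placebo (SD, n = 5 and 4). Of the 400 tested, 46 or 11.5% had an unadjusted p under 0.05 (11 up, 35 down with alendronate), beside 7.41% of all genes. ENSNFUG00015020294 was the only one called. The median log2 change of the group was -0.02, beside -0.004 for all genes tested. Leaving out placebo fish 1 reduced the 35 to 12, leaving out alendronate fish 5 to 18, and leaving out both placebo fish 1 and 4 to 20. In these fits 5.50%, 6.75% and 6.23% of the group had a small p in either direction, beside 5.20%, 5.01% and 3.53% of all genes. Without placebo fish 4 alone it was 13.0% beside 7.83%.

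Genes shared by heart and muscle, with at least 5 CPM in both and at least 10 times the mean of each other tissue in both, numbered 179, of which 17 are also muscle-enriched. They made up 7.82% to 11.6% of counts with alendronate and 8.43% to 9.36% with placebo, with alendronate fish 4 the highest. At an unadjusted p under 0.05 there were 2 higher and 13 lower, together 8.38% beside 7.41% of all genes, and the median log2 change was 0.001. The 13 became 6 when placebo fish 1 was left out and 7 when alendronate fish 3 or 5 was, and 3 when placebo fish 1 and 4 both were. In either direction 5.59% of the group had a small p without placebo fish 1, beside 5.20% of all genes. Without alendronate fish 3 or 5 it was 4.47% each time, beside 5.46% and 5.01%. Without placebo fish 1 and 4 it was 2.23% beside 3.53%.

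Evenly expressed genes, whose mean reached 5 CPM in each of the 5 tissues with under 2-fold between the highest and lowest, were more often higher than lower with alendronate at small p. Of 2610 tested, 120 were higher and 48 lower at an unadjusted p under 0.05, together 6.44%, beside 7.41% of all genes. In 54 of them (2.07%, beside 1.22% of all genes) every alendronate fish was above every placebo fish, and in 11 (0.421%, beside 1.14%) every one was below. The median log2 change was 0.05, with 1541 genes above 0 and 1069 below. More were higher than lower in each fit that left out 1 library, with 69 to 152 genes higher and 27 to 72 lower. The lowest higher count, 69, came without alendronate fish 5, and without placebo fish 1 and 4 together the counts were 42 higher and 11 lower. Both directions together made up 3.98% and 2.03% of the group in these fits, beside 5.01% and 3.53% of all genes. None of these genes was called.

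**Figure D5:**
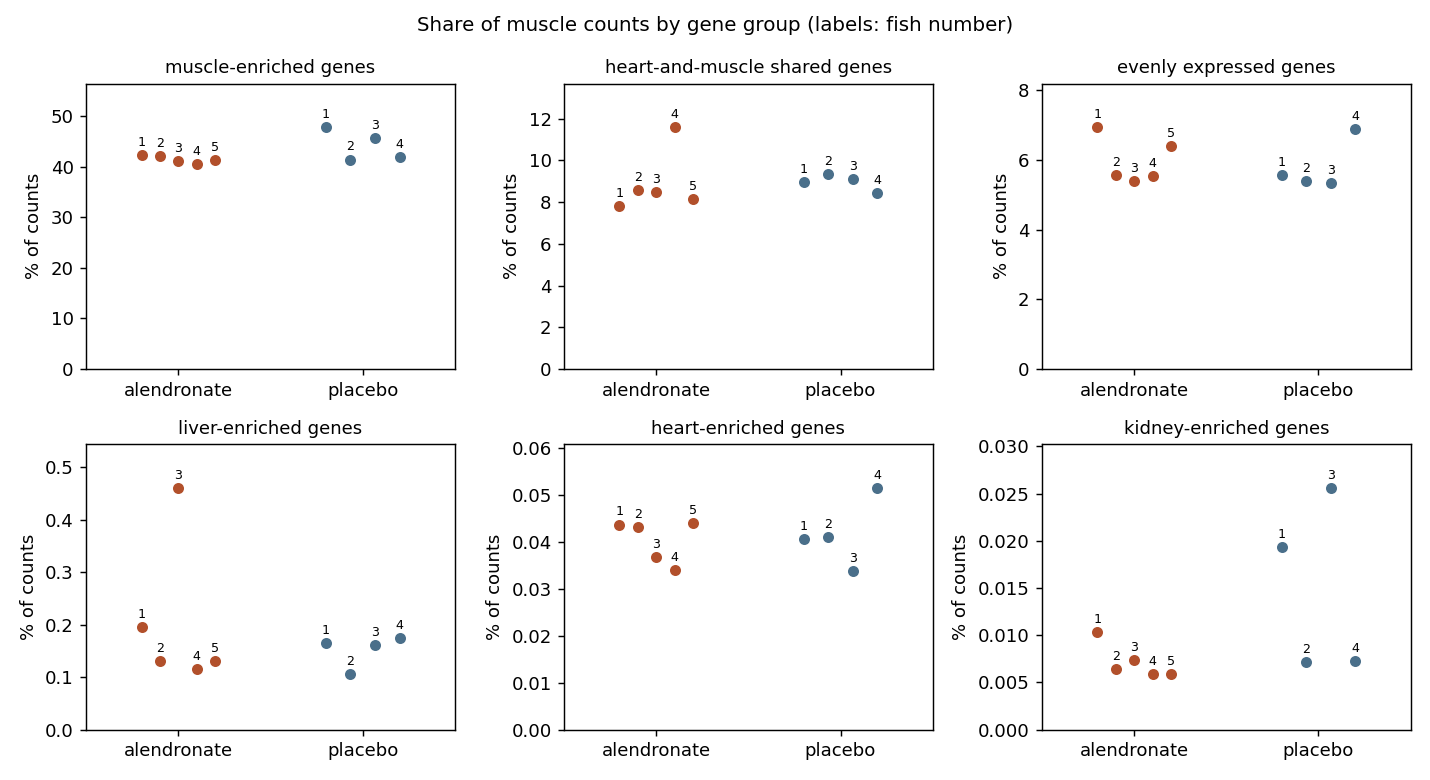
Percentage of muscle counts in 6 gene groups in each fish, alendronate on the left and placebo on the right of each panel, numbered by fish. Muscle-enriched genes are highest in placebo fish 1 and 3 (47.8% and 45.6%), liver-enriched genes in alendronate fish 3 (0.461%), and kidney-enriched genes in placebo fish 1 and 3 (0.0193% and 0.0256%).

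Genes enriched in other tissues were present in muscle at low levels and unevenly between fish. Liver-enriched genes took 0.195%, 0.130%, 0.461%, 0.116% and 0.130% of counts in alendronate fish 1 to 5 and 0.106% to 0.175% in the placebo fish. Of the 241 tested, 16 were higher and 6 lower at an unadjusted p under 0.05, together 9.13% beside 7.41% of all genes, with a median log2 change of 0.22. Without alendronate fish 3 the counts were 7 higher and 9 lower of 214 tested and the median was -0.01. Without alendronate fish 5 there were 30 higher of 241 tested, and without alendronate fish 2 there were 24 higher of 237. Without alendronate fish 3, 5 and 2 in turn, 7.48%, 14.5% and 12.2% of the liver-enriched genes had a small p in either direction, beside 5.46%, 5.01% and 6.28% of all genes. Kidney-enriched genes took 0.00586% to 0.0103% of counts with alendronate, and 0.0193%, 0.00713%, 0.0256% and 0.00725% in placebo fish 1 to 4. Of the 57 tested, 0 were higher and 11 lower at an unadjusted p under 0.05, or 19.3% beside 7.41% of all genes, with a median log2 change of -0.72. Without placebo fish 3, 2 of 69 kidney-enriched genes tested were lower, and without alendronate fish 2 or 5 it was 5 of 58 or 6 of 55. In these fits 4.35%, 8.62% and 10.9% of the group had a small p in either direction, beside 8.51%, 6.28% and 5.01% of all genes. Without placebo fish 2 or 4, 21 of 77 or 29 of 81 kidney-enriched genes were lower. In those 2 fits 28.6% and 35.8% of the group had an unadjusted p under 0.05 in either direction, beside 9.19% and 7.83% of all genes. Leaving out a placebo fish let more of these low-level genes through the count filter, so the counts are over different sets of genes. A gene can pass that filter through the libraries where it is high, so these counts are not independent of the filter. The same holds for the counts of liver-enriched genes. Of 72 heart-enriched genes 1 was higher and 6 lower (9.72%), and of 22 spleen-enriched genes 1 was higher and 1 lower (9.09%). The part of other tissue in the samples in these differences was not tested.

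The effect of alendronate in muscle was also set against its effect in heart and in liver of the same 9 fish, with fish as a block. Of 17343 genes, 0 had a different effect in muscle than in heart at an adjusted p under 0.05 in edgeR (0%). An unadjusted p under 0.05 was found for 855, or 4.93%, close to the share that this threshold itself passes where no effect differs. Against liver there were 0 of 17221 (0%), and 1382 at an unadjusted p under 0.05, or 8.03%. The smallest adjusted p was 0.884 against heart and 0.588 against liver. Leaving out placebo fish 4 gave 2318 of 17474 genes against liver at an unadjusted p under 0.05, or 13.3%. The smallest adjusted p in edgeR was then 0.0764. Leaving out placebo fish 1 gave 925 of 17570 genes against liver, or 5.26%, and both fits again had 0 calls. Against heart the number ran from 613 (3.49%) to 1136 (6.49%) when leaving out each fish. No other tool was run on this difference.

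For the named genes the difference in effect was as follows. These genes were named for their small p in muscle, and the same muscle libraries enter the differences. Small p-values and ranks here are therefore not independent of that choice. For ENSNFUG00015020294 the effect in muscle minus that in heart was -1.43 on the log2 scale with a standard error of 0.72 (unadjusted p = 0.0676, adjusted p = 0.884 in edgeR), with the few heart reads given above. For ENSNFUG00015012239 it was -0.83 with a standard error of 0.19 against heart (unadjusted p = 0.000658, adjusted p = 0.884 in edgeR), the third smallest p of that comparison. Against liver it was -0.88 with a standard error of 0.28. For ENSNFUG00015025260 it was 1.10 with a standard error of 0.24 against liver (unadjusted p = 0.000674, adjusted p = 0.588 in edgeR) and 0.66 with a standard error of 0.21 against heart. For ENSNFUG00015023923 it was 1.23 with a standard error of 0.34 against liver and 0.36 with a standard error of 0.30 against heart. None of these differences passed.

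Departures of a fish from its arm in muscle were set beside its departures in other tissues. Deviations of log2 CPM from the arm mean were correlated across 13567 genes between the muscle of a fish and another tissue of the same fish, as a description. With heart, Pearson's r ran from 0.21 to 0.40 in the 5 alendronate fish and was -0.01, 0.28, 0.21 and 0.27 in placebo fish 1 to 4. Mean r between the muscle of a fish and the heart of other fish of its arm lay between -0.13 and 0.004, where deviations from a mean that sum to 0 pull it below 0. With liver, r ran from -0.004 in alendronate fish 3, no higher than with other fish, to 0.34 in alendronate fish 1. With spleen it ran from 0.10 to 0.32 in 8 fish and with kidney from 0.05 to 0.33 in 7 fish. Only 2 of the fish with a kidney library had placebo, so their deviations in kidney are mirror images. Their r, 0.09 and 0.19, is therefore the r with the other fish with its sign reversed, unlike that of the alendronate fish. In placebo fish 1, one of the 2 fish that stood apart in muscle, the departures in muscle were thus uncorrelated with those in heart. Its r with liver was 0.05. Placebo fish 4 stood apart with an r of 0.27 with its heart, 0.12 with its liver and 0.15 with its spleen. Genes are not independent replicates, and no p is given.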

How the data were processed

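RNA from 5 tissues was sequenced, and the authors deposited 1 table of raw read counts per Ensembl gene ID, with no normalization. STAR 2.7.10b and Trim Galore 0.6.10 are among the tools listed, without roles, in the submitters' processing notes. How reads were counted (program, strand, annotation, build, near-identical copies) is a detail not given in the sources used here, and overlapping, antisense and duplicated genes are therefore uncertain. The table has 0 rows that name no gene and 0 columns of no sample. Groups came from the treatment and tissue labels.

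Muscle counts were tested with edgeR 4.0.16 in R 4.3.3 (filterByExpr, TMM, robust quasi-likelihood, two-sided, Benjamini-Hochberg over the 15610 genes, threshold 0.05), with treatment as the only term. Differences in effect between tissues used fish, tissue and their treatment term. Log2 CPM used a prior count of 2. Alternatives used DESeq2 1.42.0, limma 3.58.1, other scalings and filters, and left-out libraries. The main edgeR fit, limma-voom with and without sample weights, DESeq2 and the fit against heart were tested on simulated counts. The simulated counts held no libraries that stood apart, and the other alternatives were not simulated. For the fit against heart, the simulated heart was drawn from the muscle means and spread, with no tissue difference and no fish effect. P-values measure the spread between fish. Reads carry no molecular identifiers. The 4 named genes are those called and the 2 with the smallest p in each direction. These genes, the gene groups and the tests were chosen with earlier results of these data known, and the groups were not tested.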

Additional observations from a re-analysis of the deposited data

Results flagged for a closer look

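Single libraries were compared with the rest of their arm in 34 groups of 4 or 5 values (library measures, shares of gene groups and levels of the 4 named genes), by the gap between the extreme library and its neighbour over the range of the arm. Chance flags about 1 in 20 such groups, and 4 stood out. The TMM factor of placebo fish 4 was 1.13, with the next placebo library at 0.957. In the same library the share of counts from evenly expressed genes was 6.90%, with the next at 5.56%. The share from liver-enriched genes was 0.461% in alendronate fish 3, with the next at 0.195%. Genes shared by heart and muscle made up 11.6% in alendronate fish 4, with the next at 8.59%. No level of a named gene stood out in this way.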

How the results depend on the processing

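ENSNFUG00015020294 was lower with alendronate in all 20 alternatives, with a log2 change from -2.79 to -2.36. Its adjusted p was under 0.05 in 9 of the 20 and ran up to 0.947. It was 5.88e-13 in DESeq2, 0.0183 in limma-voom and 0.00697 in limma-voom with sample weights. The number of muscle genes called was 1 with RLE or upper-quartile scaling, with a minimum mean of 1 CPM, without robust settings, with limma-voom with or without sample weights, and with all 42 libraries in one fit. It was 0 without a filter (adjusted p 0.0769, with 23423 genes tested), 2 with DESeq2, from 0 to 1 when leaving out each library, and 0 without placebo fish 1 and 4 together, an alternative chosen after seeing the data, where 576 genes had an unadjusted p under 0.05. The further gene called by DESeq2 was muscle-enriched and lower with alendronate (DESeq2 adjusted p = 0.0269, edgeR adjusted p = 0.664). Its level was 8.26 to 17.3 CPM with alendronate against 13.5 to 57.1 CPM with placebo, here without TMM factors. With the number in the title as a replicate block 0 genes were called and 823 had an unadjusted p under 0.05, with 439 higher and 384 lower where the fit without it had 511 and 646. With this block ENSNFUG00015020294 had an adjusted p of 0.862 in edgeR. Equal numbers in the arms mark different fish, and the correlations of their deviations were -0.08, 0.23, 0.24 and -0.13. Whether fish of equal number share a batch was not tested. The other 3 named genes kept their direction in all 20 alternatives and were called in none. The counts for muscle against heart and against liver were 0 in every alternative run. With a 5-fold limit for gene groups, the difference in share, alendronate minus placebo, went to -0.00598 percentage points in place of -0.000649 for spleen-enriched genes (144 genes) and to -0.015 in place of -0.00763 for kidney-enriched genes (508 genes). For genes shared by heart and muscle it was 0.14 in place of -0.045, less than the spread between fish. Precision was lowest for genes with few reads, and 9865 genes were filtered out for low counts. The interval lay within 2-fold for 78.0% of genes at 1 CPM or more.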
